A study of Homo sapiens with 9 samples.

Results

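HaCaT cells are an established, immortalized line of human keratinocytes, the epithelial cells that make up most of the epidermis. The comparison described here sets the 3 libraries labelled NBD against the 3 labelled control, 6 of the 9 libraries in the series. Groups were taken from the sample titles. NBD is a subpopulation obtained by fluorescence-activated sorting, in a study whose stated interest was in states linked to progenitors, and control is the line as such. The sources used here do not give what NBD abbreviates, which marker or dye set the gate, or whether control cells passed through a sorter. No gene edit, drug or time course is named for either group. Both were kept in high-glucose medium with fetal bovine serum and low calcium, a setting that holds keratinocytes short of terminal differentiation. The labels name a pair of small-scale RNA kits without saying which library came from which, so a kit and the sort cannot be told apart. The 3 remaining libraries, a second sorted subpopulation labelled BD, entered the fit only to lend their spread, and one direct test of NBD against BD is given.

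In the epidermis, basal keratinocytes divide on the basement membrane, and their daughters leave it, stop dividing and switch from the keratin pair KRT5 and KRT14 to KRT1 and KRT10. Keratinocytes also act as sentinels, making interferon-stimulated proteins, cytokines and antimicrobial proteins when stressed, and they turn on hypoxia-induced and glycolytic genes when oxygen is short. Mitochondria carry a small genome of their own, transcribed as long precursors that are cut into ribosomal, transfer and messenger RNAs. In libraries of whole cell RNA, fewer cells of a type and less RNA per cell cannot be told apart, so every level below is a share of a library.

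All 8 keratinocyte markers checked were present, and their summed level was 2665 to 3287 CPM in NBD and 3207 to 4169 CPM in control. CPM stands for the counts of a gene relative to the TMM-scaled library total. Most markers of other lineages were at or near 0. Above 1 CPM in any of the 6 libraries were 3 of 10 fibroblast, 2 of 8 melanocyte, 2 of 8 endothelial, 2 of 12 immune and 4 of 14 neural or Merkel cell markers. The lineage-defining genes CD207, TYROBP, NCAM1 and STMN2 had 0 counts in all 6. Other members of the same lists were well above 0. NEFL was at 62.2 and 74 CPM in control replicates 1 and 2. CD74 and CDH5 reached 32.1 and 16.6 CPM in control replicate 3. Library totals ran from 25862752 to 29512856 counts in NBD and from 17128797 to 25782938 in control, where 3 counts are worth 0.111 to 0.168 CPM. The labels do not say whether replicates are separate cultures. The p-values of the gene tests below set a group difference against the spread of these libraries within their groups, which may be technical spread.

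The control group was not homogeneous. Of the 10172 protein-coding genes that averaged 5 CPM or more in either group, 50 differed 2-fold or more between control replicates 1 and 2, but 1619 and 1508 did between these and control replicate 3. NBD replicate 3 differed from control replicate 3 at 181 genes and from control replicates 1 and 2 at 1892 and 2030. For NBD replicate 1 the corresponding numbers were 313, 1780 and 1870, and for NBD replicate 2 they were 255, 908 and 953. Each NBD library thus differed at fewer genes from control replicate 3 than from control replicate 1 or 2. The NBD libraries were not uniform either, with 315 genes 2-fold apart between replicates 1 and 2, 585 between 2 and 3, and 1238 between 1 and 3. Whether control replicate 3 is correctly labelled, and whether control replicates 1 and 2 come from another culture or RNA kit, was not tested, and the sources used here do not say. What a difference between NBD and control stands for depends on that, so the control libraries are shown singly for the genes described in full.

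**Figure D1:**
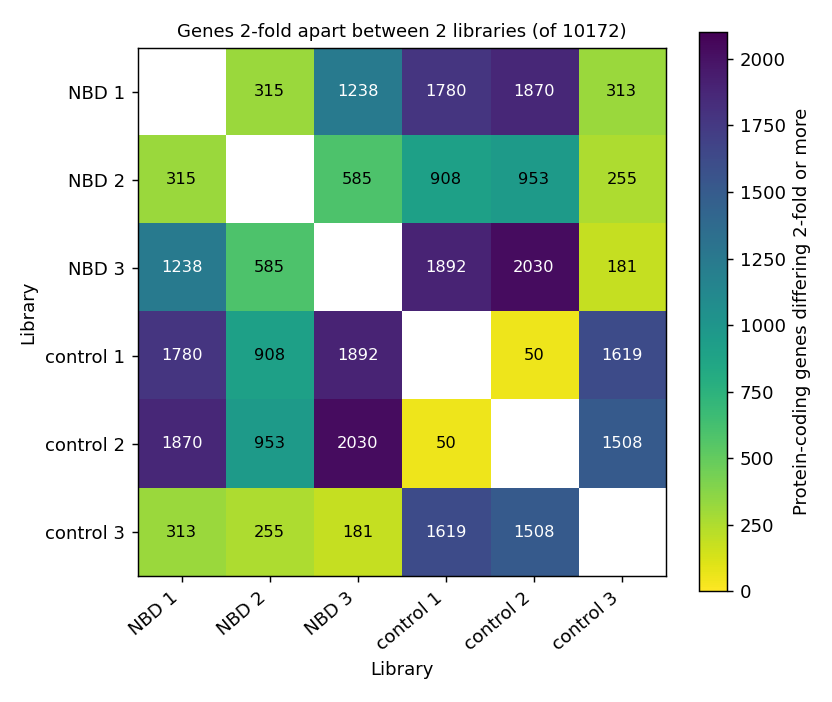
Number of protein-coding genes, of 10172, that differ 2-fold or more between each pair of the 6 libraries (both axes list libraries, colour and printed numbers give the count). Control replicates 1 and 2 differ at 50 genes, and NBD replicate 3 and control replicate 3 at 181, whereas pairs that join an NBD library with control replicate 1 or 2 differ at 908 to 2030.

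With all libraries, edgeR's quasi-likelihood test called 0 of 16921 genes (0.0%) at an adjusted p under 0.05, and the smallest adjusted p was 0.539. Unadjusted, 686 genes higher in NBD (4.05%) and 859 lower (5.08%) had p under 0.05, together 9.13%. DESeq2 called 12 genes higher (0.0709%) and 17 lower (0.1%), 8 of them from the mitochondrial genome, and limma-voom called 0. Leaving out control replicate 3 gave 3228 calls among 17755 genes, 2063 higher (11.6%) and 1165 lower (6.56%). Taking it as the only control leaves 1 control library, too few to judge by calls, so only effect sizes are given for that fit. Of 3125 genes called without control replicate 3 and tested with all libraries, 2685 had overlapping groups once it was counted and 440 did not. Set against control replicate 3 alone, 1280 of 3139 such genes kept their direction (40.8%) and 74 were past 2-fold in it (2.36%). Groups are called separated, or not overlapping, where every NBD library lay above or every one below all 3 controls. Over all 16921 genes this held for 790 genes higher in NBD (4.67%) and 634 lower (3.75%). Of all genes tested, 53.3% had a log2 fold change above 0 and 46.7% below. These shares, with those of the unadjusted p, DESeq2 calls and calls without control replicate 3, are the background for list counts below. Only MALAT1, among all genes with at least 5 CPM, had its groups separated by 2-fold or more on CPM plus 0.5. In what follows, differences that set NBD apart from all 3 controls are given first, then the other gene groups, many of which follow the split among controls. The genes were named by rules on p, separation and list membership that use this same contrast, so non-overlap of a gene picked for it adds no support.

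Messenger RNAs of the mitochondrial genome were higher in NBD than in every control library. The list holds the 13 mRNAs for subunits of respiratory complexes I, III and IV and of ATP synthase, and all 13 were above 0, at a median log2 fold change of 1.36 against 0.04 over all genes tested, of which 53.3% were above 0. The groups did not overlap for 12 of the 13, against the 4.67% of all genes that were apart in this direction. The median was 1.38 without control replicate 3 and 1.29 with it as the only control. Single members differed in this: MT-CO3 was at 2.22 and 0.60 under these choices, MT-CO2 at 1.82 and 0.90, and MT-CO1 at 1.38 and 0.92. With all libraries 0 of the 13 were called by edgeR (13 at an unadjusted p under 0.05) and 8 by DESeq2, and without control replicate 3 edgeR called 12.

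MT-ATP6, the proton-channel subunit of ATP synthase (mitochondrial genome, positions 8527 to 9207, GRCh38), stood at 107, 186 and 113 CPM in NBD replicates 1 to 3 and at 44.5, 53.4 and 50.7 CPM in control replicates 1 to 3. The lowest NBD library was about 2-fold above the highest control, and the log2 fold change was 1.45 ± 0.23 (SE). MT-ND4, a complex I subunit (positions 10760 to 12137), stood at 215, 319 and 246 CPM in NBD and 122, 135 and 107 CPM in control, a log2 fold change of 1.10 ± 0.20. MT-CO1, the catalytic subunit of cytochrome c oxidase (positions 5904 to 7445), stood at 3566, 3857 and 3967 CPM in NBD and 1506, 1451 and 1996 CPM in control, a log2 fold change of 1.20 ± 0.23. For MT-CO1, control replicate 3 was the highest of the controls but still below each NBD library, and for MT-ND4 it was the lowest. DESeq2 adjusted p was 7.23e-05 for MT-ATP6, 0.0019 for MT-ND4 and 1.07e-05 for MT-CO1, with adjusted p by edgeR at 0.539 for each of the 3.

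The other subunits followed the same order. Complex I subunits MT-ND1, MT-ND2, MT-ND5 and MT-ND6 had log2 fold changes of 1.32 ± 0.25, 1.36 ± 0.27, 0.96 ± 0.23 and 1.37 ± 0.46, each with no overlap. MT-ND4L, also of complex I and overlapping MT-ND4 in its annotation, was at 0.91 ± 0.28, again with no overlap. MT-ND3 was the exception to separation, at 9.33, 45.9 and 19.4 CPM in NBD and 5.62, 7.63 and 10.4 CPM in control, where NBD replicate 1 lay below control replicate 3. Cytochrome b, MT-CYB, was at 0.99 ± 0.20, and the cytochrome c oxidase subunits MT-CO2 and MT-CO3 at 1.44 ± 0.28 and 1.46 ± 0.41. MT-CO3 differed between controls, at 773, 842 and 2442 CPM, against 3430.3, 3679 and 4053 CPM in NBD. MT-ATP8, whose reading frame overlaps that of MT-ATP6, was at 1.71 ± 0.39. NBD replicate 2 had the highest level of all NBD libraries for MT-ATP6, MT-ND4, MT-ND1, MT-CYB and MT-ND3. Nuclear copies share reads with these genes, so the counts are uncertain to that extent: MTATP6P1 was at 1.45 ± 0.36 and MTND2P28, chosen after its values were seen, at 1.57 ± 0.35.

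**Figure D2:**
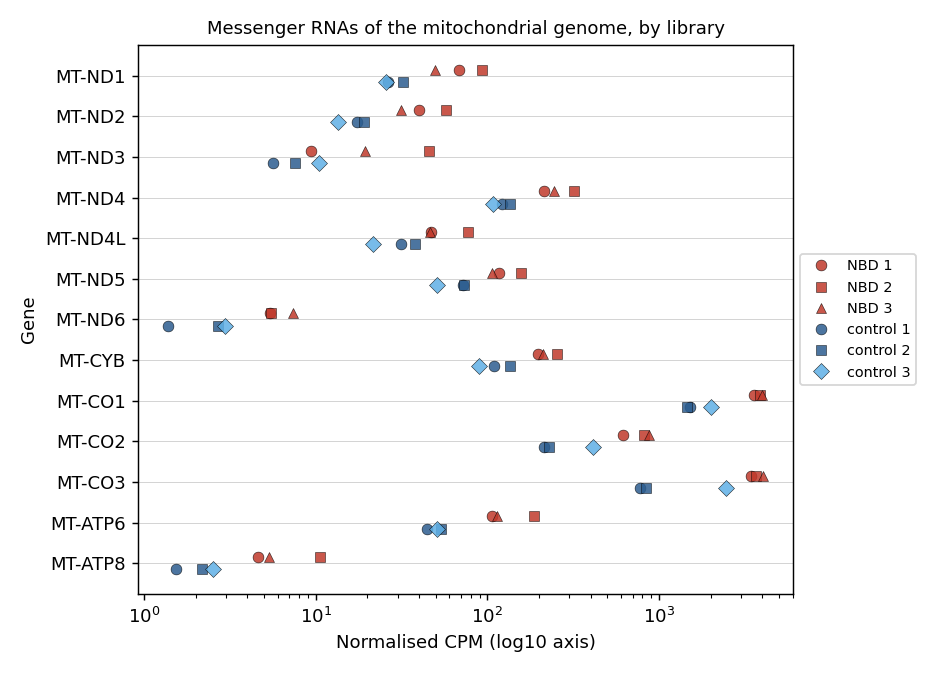
Normalised CPM (log10 axis) of the 13 messenger RNAs of the mitochondrial genome in the 3 NBD libraries (red) and the 3 control libraries (dark blue for replicates 1 and 2, light blue for replicate 3). Red symbols lie to the right of all blue ones for 12 of the 13 genes, the exception being MT-ND3.

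The structural RNAs of the mitochondrial ribosome pointed the same way. MT-RNR2, its large-subunit rRNA, stood at 212618, 246444 and 284583 CPM in NBD and 83467, 84456 and 172506 CPM in control, a log2 fold change of 1.13 ± 0.42. MT-RNR1, the small-subunit rRNA, stood at 54086, 40050.1 and 50724 and 30048, 29677 and 28322 CPM, a log2 fold change of 0.72 ± 0.29. Neither gene overlapped between groups, and both reflect what rRNA depletion left in a library as well as what the cells held. As a share of all counts the 2 rRNAs took 27.3%, 26.8% and 28.9% in NBD and 12.3%, 11.9% and 20.7% in control. The 13 mRNAs took 0.863%, 0.894% and 0.838% in NBD and 0.317%, 0.314% and 0.538% in control. Every NBD share was above every control share in both cases (exact two-sided permutation test, p = 0.1 for each, the smallest that 3 against 3 libraries can give). Wilson 95% intervals of a single library spanned at most 0.0341 percentage points for rRNA and 0.00725 for mRNA and cover counting error only. Among 22 mitochondrial tRNA genes 10 had enough counts to be tested, 8 of them above 0 at a median of 1.21, and 3 did not overlap. MT-TV, the valine tRNA, stood at 2.96, 2.40 and 2.44 CPM in NBD and 0.766, 0.953 and 0.866 CPM in control, and MT-TP, the proline tRNA on the opposite strand, at 0.593, 0.993 and 1.53 and 3.78, 3.92 and 1.32 CPM. MT-TP was thus one of the 2 tRNAs below 0.

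Nuclear genes that serve the mitochondrion showed no such shift. The 60 nuclear-encoded respiratory chain genes had a median log2 fold change of 0.04, with 34 above 0. One of them, the complex I subunit NDUFA13, was separated higher, at 1.01 ± 0.41, and 0 were separated lower. The 29 tested genes for transcription, processing and translation of mitochondrial RNA had a median of -0.08, 20 of them below 0. In that list TWNK, the mitochondrial DNA helicase, stood at 11.7, 19.8 and 10.5 CPM in NBD and 31.5, 39.3 and 11.9 CPM in control, and PNPT1, a mitochondrial RNA exonuclease, at 73.2, 84.4 and 85.8 and 137, 142 and 74.5 CPM. In both genes every NBD library was below control replicates 1 and 2, and the NBD libraries lay on both sides of control replicate 3. By edgeR 0 members of either list were called (1 and 4 at an unadjusted p under 0.05).

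The same mRNAs also separated NBD from the other sorted group. Tested directly against BD, 3 genes were called of 16921, all higher in NBD (0.0177%): MT-ATP6 at a log2 difference of 2.04 ± 0.23, MT-ND4 at 1.83 ± 0.20 and MT-CYB at 1.61 ± 0.20 (edgeR, adjusted p = 0.032, 0.032 and 0.0457). The rule for naming did not use this contrast, although the NBD libraries are the same. Over the 13 mRNAs the median against BD was 1.80, with all 13 above 0. No other gene was called in this test, so the other differences from control described here are not shown to be particular to NBD. The call count depended on single libraries, as given in the closing section.

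Next to the mitochondrial transcripts, the noncoding RNA MALAT1 and several mitotic mRNAs were higher in NBD than in all controls. MALAT1, a long noncoding RNA held in nuclear speckles (chromosome 11, 65497688 to 65506516, plus strand), stood at 6005, 4769 and 6921 CPM in NBD and 1816, 1022 and 2192 CPM in control. The groups were far apart, and the log2 fold change was 1.81 ± 0.32, 2.07 without control replicate 3 and 1.42 against it alone. DESeq2 called MALAT1 (adjusted p = 1.07e-05) and edgeR did not with all libraries (0.539). TALAM1, annotated antisense to MALAT1, was at 1.69 ± 0.45, a value that cannot be separated from MALAT1 without knowing how strand was treated in counting. NEAT1, the scaffold RNA of paraspeckles, stood at 716, 1557 and 331 CPM in NBD and 386, 266 and 170.0 CPM in control, a log2 fold change of 1.66 ± 0.49. NBD replicate 3 lay below control replicate 1, so NEAT1 overlapped between groups. The rest of the nuclear-retained RNA and paraspeckle list did not follow, since 6 of its 12 tested members were above 0 and the median was 0.03. LINC01572, a long noncoding RNA of chromosome 16, stood at 18.4, 11 and 8.06 CPM in NBD and 5.21, 3.76 and 6.59 CPM in control.

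CENPE, the kinesin that attaches kinetochores to spindle microtubules (chromosome 4, 103105806 to 103198409, minus strand), stood at 120.3, 141 and 108 CPM in NBD and 42.3, 12.9 and 60.5 CPM in control. Its log2 fold change was 1.67 ± 0.43, with control replicate 2 well under the other controls. KIF23, a kinesin of the central spindle, stood at 216, 234 and 214 CPM in NBD and 163, 153 and 167 CPM in control, a log2 fold change of 0.46 ± 0.16 with little spread in either group. KIF18A, which dampens chromosome movement on the spindle, was at 0.85 ± 0.30 and also did not overlap. These were 3 of the 6 members of the 38-gene G2 and mitosis list that were separated higher (4.67% of all genes were), 0 being separated lower (3.75%). The other members, named after their values were seen, were CENPF, a kinetochore protein, at 0.98 ± 0.39, the kinesin KIF14 at 0.47 ± 0.23 and the spindle pole protein ASPM at 0.86 ± 0.41. The median of that list was nevertheless 0.02, with 21 members above 0. It was -0.05 without control replicate 3 and 0.24 with that library as the only control. CCNF, a cyclin that targets proteins for degradation, was at -0.72 ± 0.27. MKI67, a marker of cycling cells, was at 0.02 ± 0.42 with overlapping groups.

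Most splicing regulators were above 0 by a small amount. Of 33 genes for SR proteins, related splicing factors and CLK kinases 25 were above 0 (53.3% of all genes were), the median was 0.13, and 6 were separated higher (4.67% of all genes) and 0 lower (3.75%). SRSF2, an SR protein, stood at 305, 254 and 242 CPM in NBD and 142, 179 and 217 CPM in control, a log2 fold change of 0.57 ± 0.21. Also separated higher, and named after their values were seen, were the SR proteins SRSF5 and SRSF6 at 0.36 ± 0.16 and 0.10 ± 0.14, and the splicing regulators TRA2A, RBM39 and PNISR at 0.29 ± 0.17, 0.27 ± 0.19 and 0.51 ± 0.22. DDX5, an RNA helicase in the spliceosome, stood at 657, 483 and 582 CPM in NBD and 246, 264 and 499 CPM in control, where NBD replicate 2 lay below control replicate 3. SRSF9, another SR protein, ran the other way at -0.71 ± 0.24. By edgeR 0 of the 33 were called (6 at an unadjusted p under 0.05). Small nucleolar RNA host genes had 3 of 28 members separated higher, including SNHG14 at 0.52 ± 0.19 and SNHG15 at 0.38 ± 0.16, around a median of -0.04. SNORD3A, the U3 small nucleolar RNA, chosen after its values were seen and present in near-identical copies, stood at 5393, 7733 and 6949.6 CPM in NBD and 9644, 11038 and 4797 CPM in control, so control replicate 3 lay below every NBD library and the other controls above. Small nucleolar RNAs together took 0.572%, 0.745% and 0.615% of counts in NBD and 1.07%, 1.19% and 0.509% in control (exact two-sided permutation test, p = 0.4).

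Among genes lower in NBD than in every control, separation was narrower. DBP, a transcription factor with clock-driven rhythms (chromosome 19, 48630030 to 48637438), stood at 3.00, 3.43 and 3.78 CPM in NBD and 6.85, 6.84 and 6.97 CPM in control. It had the widest gap of any lower protein-coding gene, its controls were alike, and its log2 fold change was -1.02 ± 0.31 with all libraries and -1.04 against control replicate 3 alone. S1PR2, a receptor for sphingosine-1-phosphate, stood at 1.48, 2.61 and 3.23 CPM in NBD and 5.67, 6.00 and 5.80 CPM in control, a log2 fold change of -1.26 ± 0.36. CLIP2, a linker between membranes and microtubules, stood at 30.7, 40.7 and 29.1 CPM in NBD and 56.1, 65.9 and 58.6 CPM in control, a log2 fold change of -0.85 ± 0.23. BCL9, a coactivator of beta-catenin, stood at 8.74, 7.90 and 6.06 and 12.1, 12.2 and 12.8 CPM, and SOX12, a SoxC transcription factor, at 3.41, 3.89 and 3.27 and 5.57, 6.28 and 6.25 CPM. In these 5 genes control replicate 3 was as far from NBD as the other controls were, so the difference did not follow the control split. TP73, a p53-family transcription factor, was at -1.47 ± 0.41, CNNM1, a CNNM-family membrane protein, at -1.13 ± 0.30, and ULK2, an autophagy kinase, at -0.95 ± 0.30, with control replicate 3 the control nearest to NBD in each.

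A further group was separated from all controls but stood much nearer to control replicate 3. NCS1, a calcium sensor, stood at 30.4, 41.9 and 34 CPM in NBD and 91, 113 and 54.2 CPM in control, a log2 fold change of -1.28 ± 0.26 with all libraries and -0.63 against control replicate 3 alone. CNN2, the actin-binding calponin 2, stood at 91.1, 111 and 78.5 CPM in NBD and 195, 232 and 141 CPM in control, a log2 fold change of -1.02 ± 0.22. PODXL, a sialomucin of cell surfaces, was at -1.09 ± 0.25 and KLF13, a Krüppel-like transcription factor, at -1.69 ± 0.39. ID3, an inhibitor of bHLH factors that BMP signals induce, stood at 20.1, 36 and 29.9 CPM in NBD and 99.8, 111 and 40.7 CPM in control. All 5 were called by DESeq2, at adjusted p from 0.00961 for NCS1 to 0.0391 for PODXL, and by edgeR in the fit without control replicate 3, where they fell by 1.17 to 2.04 on the log2 scale. PEX5, the import receptor of peroxisomes, EFHD2, an actin-bundling calcium-binding protein, and UBL4A, a chaperone of tail-anchored proteins, were at -0.97 ± 0.23, -0.87 ± 0.20 and -0.85 ± 0.21.

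**Figure D3:**
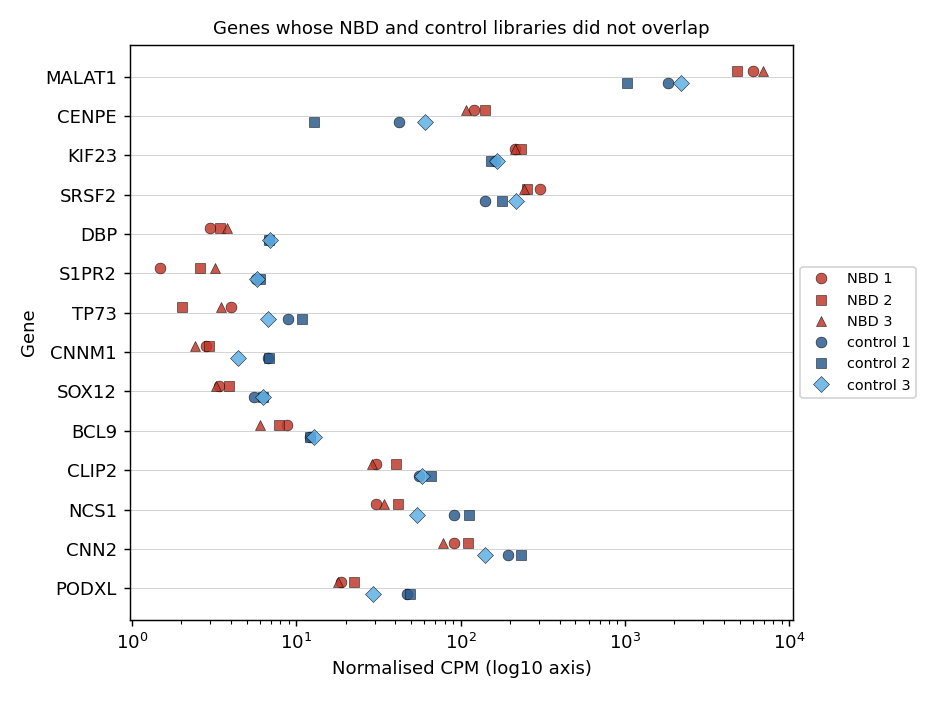
Normalised CPM (log10 axis) of 14 genes whose NBD libraries (red) all lay above or all below the 3 control libraries (blue, light blue for replicate 3). MALAT1 shows the widest separation, while NCS1, CNN2 and PODXL have control replicate 3 between NBD and the other controls.

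Many of the other differences followed the split among controls, among them those in genes of oxygen shortage and sugar breakdown. Of 33 hypoxia and glycolysis genes 28 were below 0, against 46.7% of all genes, at a median log2 fold change of -0.59. The median was -0.81 without control replicate 3, where 18 members fell (6.56% of all genes did) and 1 rose, and -0.04 with control replicate 3 as the only control. With all libraries 3 members were separated lower (3.75% of all genes were) and 0 were called by edgeR. Unadjusted, 18 had an edgeR p under 0.05, all lower (5.08% of all genes). DESeq2 called 2, both lower (0.1% of all genes). The factor HIF binds the letters ACGTG in the promoters of many such genes. RefSeq promoter windows (GRCh38.p14) of the 250 bases before the transcription start were searched for ACGTG on both strands, and 3 members whose values carry this pattern are printed with each match in capitals, 5′ to 3′ along the gene's strand (a match on the other strand reads CACGT, and joined matches share bases).
CA9, chr9:35673678-35673927, plus strand: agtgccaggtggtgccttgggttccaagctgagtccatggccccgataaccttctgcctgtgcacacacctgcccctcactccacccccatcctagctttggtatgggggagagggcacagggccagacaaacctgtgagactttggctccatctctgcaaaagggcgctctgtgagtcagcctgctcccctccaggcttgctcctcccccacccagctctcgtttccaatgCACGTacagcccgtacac
BNIP3, chr10:131981924-131982173, minus strand: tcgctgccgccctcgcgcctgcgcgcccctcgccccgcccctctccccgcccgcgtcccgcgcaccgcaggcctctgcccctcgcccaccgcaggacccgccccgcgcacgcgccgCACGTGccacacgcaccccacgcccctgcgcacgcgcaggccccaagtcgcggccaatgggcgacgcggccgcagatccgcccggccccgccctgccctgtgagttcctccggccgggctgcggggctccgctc
PGK1, chrX:78103998-78104247, plus strand: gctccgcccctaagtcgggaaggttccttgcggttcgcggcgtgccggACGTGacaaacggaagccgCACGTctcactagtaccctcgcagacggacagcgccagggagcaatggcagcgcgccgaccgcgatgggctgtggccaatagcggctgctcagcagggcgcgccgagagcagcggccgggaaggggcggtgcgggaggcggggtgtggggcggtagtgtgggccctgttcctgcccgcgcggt
Such a match was found in 18.5% of all 35116 promoter windows and in 42.0% of the 50 windows of list members, which stand for 29 genes and often several starts a gene. By gene, 18 of the 29 had one in at least 1 window, against 21.7% of all 27305 genes. A match is a description of the letters, not a bound site. These shares describe a list of known hypoxia and glycolysis genes and draw on no NBD or control value.

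CA9, a carbonic anhydrase of hypoxic cells, stood at 0.963, 0.786 and 1.22 CPM in NBD and 7.46, 8.41 and 1.24 CPM in control. BNIP3, a receptor that marks mitochondria for removal, stood at 4.56, 11 and 7.12 CPM in NBD and 95.4, 91.3 and 5.99 CPM in control. PGK1, a glycolytic kinase chosen after its values were seen, stood at 453, 592 and 683 CPM in NBD and 1047, 1111 and 584 CPM in control. All 3 were high in control replicates 1 and 2 and near NBD levels in control replicate 3. Their log2 fold changes were -2.52 ± 0.65, -3.08 ± 0.77 and -0.67 ± 0.28 with all libraries and -0.33, 0.32 and -0.03 against control replicate 3 alone. EGLN3, an oxygen sensor that marks HIF for destruction, stood at 1.33, 1.78 and 1.10 CPM in NBD and 8.94, 9.03 and 1.92 CPM in control, so that it was lower than all 3 controls by a narrow margin. CA9 was another of the 3 separated members, though barely, with 31 counts in NBD replicate 3 and 33 in control replicate 3. The third was PFKFB4, a regulator of glycolysis named after its values were seen. It stood at 4.74, 6.25 and 4.52 CPM in NBD and 7.72, 8.91 and 6.59 CPM in control. NDRG1, a stress-induced gene, and the lactate-forming enzyme LDHA and hexokinase HK2, the last 2 chosen after their values were seen, fell by 3.27, 1.81 and 1.86 on the log2 scale in the fit without control replicate 3 (edgeR, adjusted p = 0.00161, 7.70e-04 and 7.02e-04). Against control replicate 3 alone they stood at 0.36, 0.33 and 0.24. Metallothioneins, which bind zinc and copper, shared the order: MT1X was at 4.85, 4.10 and 2.60 CPM in NBD and 54.6, 56.9 and 1.66 CPM in control, and against control replicate 3 alone the 5 genes tested had a median of 0.93.

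Interferon-stimulated genes ran in the opposite direction along the same split. Of 38 tested 35 were above 0 (53.3% of all genes were) at a median of 0.66. The median was 1.43 without control replicate 3 and -0.06 against control replicate 3 alone. Without that library 28 rose and 0 fell (11.6% and 6.56% of all genes did). By edgeR 0 were called with all libraries (3 at an unadjusted p under 0.05, all higher). Of the 38, 3 were separated higher and 1 lower (4.67% and 3.75% of all genes were). Interferon-activated factors bind a pair of GAAA motifs with 2 bases of any kind between them. In the same windows this pattern, searched on both strands, occurred in 3.02% of all promoters and in 53.7% of 41 windows of list members, 19 of 31 genes against 3.71% of all genes. Here too the shares describe a list of known interferon-stimulated genes and draw on no NBD or control value. The windows of 3 members, chosen for holding the motif, show the matches in capitals, and a match on the other strand reads TTTC, any 2 bases and TTTC.
IFIT1, chr10:89392373-89392622, plus strand: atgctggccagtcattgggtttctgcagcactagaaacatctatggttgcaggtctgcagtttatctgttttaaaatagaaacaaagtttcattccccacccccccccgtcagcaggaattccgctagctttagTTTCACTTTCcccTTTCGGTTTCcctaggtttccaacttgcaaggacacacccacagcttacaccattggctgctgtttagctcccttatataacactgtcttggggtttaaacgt
IFI44L, chr1:78620198-78620447, plus strand: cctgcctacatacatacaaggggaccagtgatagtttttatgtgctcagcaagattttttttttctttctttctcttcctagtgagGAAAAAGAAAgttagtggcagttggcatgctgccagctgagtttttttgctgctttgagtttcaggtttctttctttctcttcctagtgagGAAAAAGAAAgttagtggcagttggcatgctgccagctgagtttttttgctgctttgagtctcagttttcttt
ISG15, chr1:1013247-1013496, plus strand: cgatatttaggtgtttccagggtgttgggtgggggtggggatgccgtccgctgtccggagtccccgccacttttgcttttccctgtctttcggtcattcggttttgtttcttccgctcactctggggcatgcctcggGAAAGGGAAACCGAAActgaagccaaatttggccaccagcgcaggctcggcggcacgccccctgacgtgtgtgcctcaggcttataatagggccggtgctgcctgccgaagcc
IFIT1, which binds foreign RNA ends, stood at 60.5, 86.3 and 108 CPM in NBD and 39.6, 38.3 and 89.2 CPM in control. IFI44L, an interferon-induced gene, stood at 10.1, 2.90 and 7.00 CPM in NBD and 0.204, 0.336 and 4.97 CPM in control. ISG15, a ubiquitin-like modifier, stood at 63.6, 73.5 and 107 CPM in NBD and 18, 22.9 and 107 CPM in control. In all 3, controls 1 and 2 were the lowest libraries and control replicate 3 lay within or beside the NBD range. In the fit without control replicate 3 they rose by 1.14, 4.64 and 2.01 (edgeR, adjusted p = 0.0249, 0.00137 and 0.00269).

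MX1, an antiviral GTPase, stood at 45.9, 23.3 and 24.2 CPM in NBD and 4.19, 3.53 and 22.2 CPM in control. SAMD9L, an antiviral restriction factor, stood at 121, 75.6 and 86.2 CPM in NBD and 14.7, 7.79 and 71.8 CPM in control. Both were higher than every control, though by narrow margins over control replicate 3. The 1 member lower than every control was the ubiquitin ligase DTX3L, named after its values were seen, with a log2 fold change of -0.19 ± 0.17. XAF1, an interferon-induced promoter of apoptosis, and IRF9, which carries interferon signals to DNA, had log2 fold changes of 1.79 ± 0.82 and 1.73 ± 0.61 with overlapping groups. IRF9 differed among NBD libraries, at 8.71, 5.38 and 1.97 CPM. OAS1, a sensor of double-stranded RNA chosen after its values were seen, stood at 68.1, 58.8 and 91.9 CPM in NBD and 8.02, 8.19 and 81.6 CPM in control, so control replicate 3 lay inside the NBD range.

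Antigen presentation, cytokine and antimicrobial genes shared this order. The 15 MHC class I presentation genes had a median of 0.53 with 14 above 0 (53.3% of all genes were). It was 1.08 without control replicate 3 and -0.28 against that library alone. In the former fit 11 rose (11.6% of all genes did). TAP2, a subunit of the peptide transporter, was separated at 54.5, 55.6 and 45.8 CPM in NBD and 31.3, 34 and 42.5 CPM in control, a log2 fold change of 0.53 ± 0.17. The peptide-trimming protease ERAP2 was likewise separated, at 0.92 ± 0.34. The 33 tested NF-kB and cytokine genes had medians of 0.69, 1.84 and -0.24 under these 3 choices of control. Without control replicate 3, 19 rose (11.6% of all genes did). TLR3, a receptor for double-stranded RNA, stood at 36.3, 32.1 and 53.1 CPM in NBD and 13.4, 9.25 and 36.5 CPM in control, while RELA, the p65 subunit of NF-kB, was lower in all NBD libraries, at -0.43 ± 0.18.

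For 16 antimicrobial and complement genes the medians were 0.86, 4.43 and -0.40. Without control replicate 3, 11 rose and 1 fell (11.6% and 6.56% of all genes did). SAA2, an acute-phase protein, stood at 97.6, 73.1 and 108 CPM in NBD and 3.01, 2.07 and 85.6 CPM in control. LCN2, an iron-scavenging defence protein chosen after its values were seen, spread over 888, 1331 and 2443 CPM within NBD and stood at 1.02, 1.23 and 1808 CPM in control. The complement protease C1S stood at 31.3, 19.4 and 39.8 CPM in NBD and 3.12, 3.87 and 40.2 CPM in control. None of these 3 was higher in NBD than in control replicate 3 throughout. CD74, the MHC class II chaperone and one of the 2 immune markers above 1 CPM, stood at 14.3, 10.1 and 25.8 CPM in NBD and at 1 count, 0 counts and 32.1 CPM in control. The summed immune markers were 14.5 to 32.8 CPM in NBD and 1.23, 0.785 and 38.9 CPM in control, most of it CD74 and CD14, and their part in the result was not tested.

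**Figure D4:**
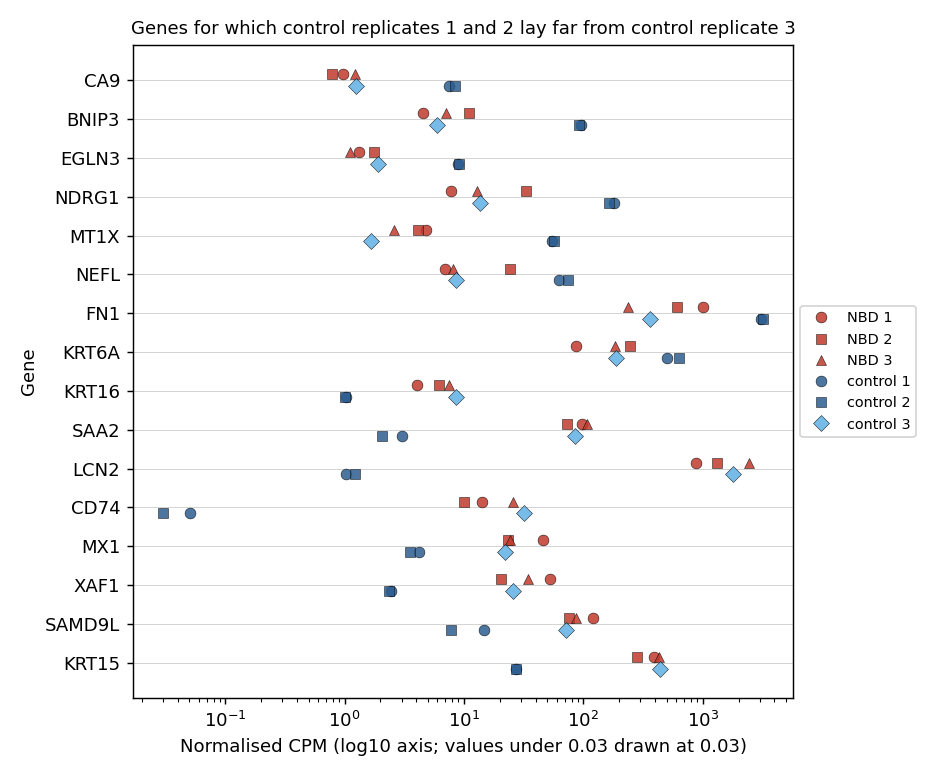
Normalised CPM (log10 axis) of 16 genes in the 3 NBD libraries (red) and 3 control libraries (dark blue for replicates 1 and 2, light blue for replicate 3). Control replicates 1 and 2 lie together at one end for each gene, and control replicate 3 lies with or near the NBD libraries.

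Keratins and differentiation genes showed the split more than a difference from all controls. KRT5, the basal keratin, stood at 508, 668 and 323 CPM in NBD and 1012, 1242 and 367 CPM in control, a log2 fold change of -0.81 ± 0.42. Its partner KRT14 stood at 139, 437 and 380.0 CPM in NBD and 321, 387 and 343 CPM in control, with NBD replicate 1 below all other libraries. TP63, the transcription factor of basal cells, was lower in every NBD library, at 159.6, 233 and 264 against 300.2, 283 and 285 CPM, a log2 fold change of -0.40 ± 0.25 with an unadjusted p of 0.134 by edgeR. KRT15, a keratin of basal and follicle stem cells, stood at 393, 285 and 431 CPM in NBD and 27.1, 27.3 and 442 CPM in control. Its log2 fold change was 1.16 ± 0.87 with all libraries and -0.26 against control replicate 3 alone, and in the fit without that library it rose by 3.78 (edgeR, adjusted p = 2.77e-05). KRT10, of differentiating cells, was at 0.16 ± 0.29, and its partner KRT1 had 0 counts in 5 of the 6 libraries. IVL, a protein of the cornified envelope, had at most 1.18 CPM in any of them.

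The 11 tested basal genes had a median of -0.40, with 7 below 0 and 1 separated lower (46.7% and 3.75% of all genes were). The median was -0.39 without control replicate 3 but 0.05 with that library as the only control. Without that library 5 fell and 1 rose (6.56% and 11.6% of all genes did). CAV1, the caveolar coat protein, stood at 478, 892 and 679 CPM in NBD and 2441, 2499 and 497 CPM in control. The laminin receptor ITGA6 stood at 288, 446 and 348 CPM in NBD and 769, 743 and 322 CPM in control, and ITGB1, its partner in other integrins, was at 0.19 ± 0.20. ITGA6 in NBD was below controls 1 and 2 and on both sides of control replicate 3. The stress keratins parted: KRT6A, induced on wounding, was highest in control replicates 1 and 2, at 86.8, 246 and 183 CPM in NBD and 499, 630.5 and 189 CPM in control, whereas KRT16 and KRT17 were lowest there, at 1.02, 1.01 and 8.55 and 179.7, 238 and 794 CPM. The 8 tested stress keratins and alarmins had a median of 0.60, which was 3.51 without control replicate 3 and -0.62 against it alone. Without that library 5 rose and 1 fell (11.6% and 6.56% of all genes did). For 11 tested genes of spinous and cornified layers the median was -0.01. ABCA12, a lipid transporter of the skin barrier, stood at 34.5, 24.1 and 42 CPM in NBD and 11.1, 9.31 and 28.5 CPM in control, and KLK7, a shedding protease, at 4.19, 5.83 and 3.89 and 12.1, 11.4 and 4.22 CPM.

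Adhesion and matrix genes were mixed. The 24 integrin and hemidesmosome genes had a median of 0.01. For the 19 desmosome and adherens junction genes it was -0.11, with 13 below 0 and 2 separated lower (46.7% and 3.75% of all genes were). Those 2 were the desmosomal cadherin DSC3 at -0.31 ± 0.20 and the placental cadherin CDH3 at -0.40 ± 0.19, named after their values were seen. CDH1, the epithelial cadherin, stood at 191, 170.1 and 148 CPM in NBD and 261, 259 and 191 CPM in control, with NBD replicate 1 and control replicate 3 nearly equal. CDH2, the neural cadherin of mesenchymal cells, was higher in every NBD library at 89.6, 60.3 and 53.3 against 29.2, 27.8 and 47.6 CPM, a log2 fold change of 0.96 ± 0.29. BD was higher than control as well, by 1.00 ± 0.29. FN1, fibronectin, varied widely, at 1015, 609.8 and 239 CPM in NBD and 3071, 3221 and 361 CPM in control. Over the 20 tested genes of mesenchymal transition and matrix the median was 0.21. CDH2 and the transcription factor ZEB1 were separated higher (4.67% of all genes were). ZEB1 stood at 4.07, 2.48 and 3.23 CPM in NBD and 0.817, 0.561 and 2.45 CPM in control, a very narrow margin over control replicate 3. TIMP3, an inhibitor of matrix proteases, stood at 1.82, 3.81 and 3.54 CPM in NBD and 18.4, 20.2 and 3.73 CPM in control, and PLAU, urokinase, was at -0.78 ± 0.25.

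Among growth and signalling genes, the 25 targets and parts of TGF-beta, BMP and YAP pathways had 19 members below 0 (46.7% of all genes were). Their median was -0.30, which was -0.46 without control replicate 3 and 0.16 with it as the only control. ID3 and BMP2 were separated lower (3.75% of all genes were). BMP2, a BMP ligand, stood at 4.15, 6.00 and 4.96 CPM in NBD and 11.5, 11.3 and 6.97 CPM in control. The 27 tested WNT and Notch genes had 19 below 0 at a median of -0.38, which was -0.39 and 0.13 under the same choices. ZNRF3, a ubiquitin ligase that removes WNT receptors, stood at 17.2, 14 and 10.1 CPM in NBD and 21.3, 21.7 and 19.6 CPM in control, lower throughout, and the Notch cofactor MAML2 was higher throughout, at 0.47 ± 0.20. Immediate-early genes, a class induced soon after stimulation, had a median of 0.42 with 17 of 25 above 0. It was 1.78 without control replicate 3, where 14 rose (11.6% of all genes did), and -0.50 against that library alone. In that list KLF6 was separated higher, at 0.74 ± 0.24, while IER5, DUSP5 and the ERK phosphatase DUSP6 were separated lower, at -0.64 ± 0.27, -0.66 ± 0.35 and -0.47 ± 0.23. Of all genes 4.67% were separated higher and 3.75% lower. TGFA, an EGF receptor ligand, stood at 38.5, 56.5 and 43 CPM in NBD and 122, 131 and 46.8 CPM in control, and EPGN, another, at 6.67, 10.3 and 12.2 and 0.664, 0.785 and 8.74 CPM, the controls being split in opposite directions. DDIT3, the stress-induced factor CHOP, was higher in every NBD library at 29, 30.2 and 31 against 10.5, 10.8 and 23.1 CPM, a log2 fold change of 1.02 ± 0.29. It belongs to the 27-gene unfolded protein and integrated stress list, whose median was 0.13.

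Replication and growth lists had medians of small size, though most S phase genes were below 0. The 32 S phase genes had a median of -0.13 with 26 below 0 (46.7% of all genes were). Their median was -0.24 without control replicate 3 and 0.09 with that library as the only control. MCM6, of the replicative helicase, stood at 101, 96.5 and 93.7 CPM in NBD and 205, 212 and 81.7 CPM in control. CDKN1B, a brake on the cell cycle, was lower throughout at -0.48 ± 0.17, and CDKN1A, a p53 target, was at -0.00 ± 0.42. The 44 tested replication-dependent histone genes had a median of -0.02, yet H3C3 stood at 0.333, 8.32 and 0.433 CPM in NBD and 102, 127 and 0.151 CPM in control, and H2BC3 at 0.0741, 8.44 and 0.472 and 33.8, 37.7 and 0.716 CPM. Both histone genes were high in control replicates 1 and 2, intermediate in NBD replicate 2 and under 1 CPM in the remaining 3 of these libraries, and members of the family have near-identical copies. The 30 cholesterol and fatty acid synthesis genes were at a median of -0.07, 15 heat shock chaperones at -0.22, 21 NRF2 antioxidant genes at 0.01 and 24 epidermal transcription factors at -0.23. By edgeR 0 members of any list were called with all libraries. Of 36 list medians, 19 changed sign with control replicate 3 as the only control.

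**Figure D5:**
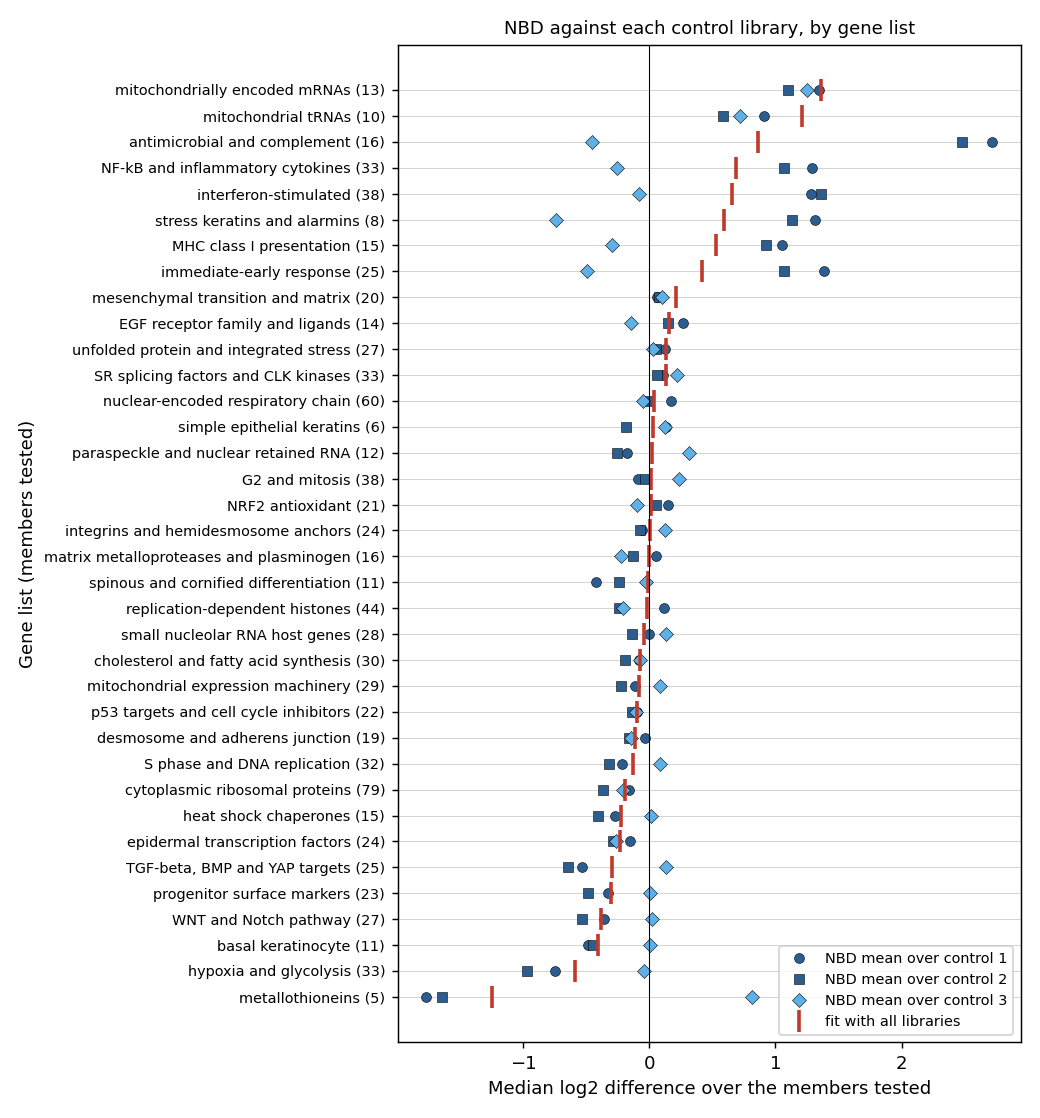
Median log2 difference over the tested members of each gene list, for the mean of the NBD libraries against each control library (circles, squares and diamonds for control replicates 1, 2 and 3) and for the fit with all libraries (red bars), with the number of members tested in brackets. The 3 controls give similar medians for mitochondrially encoded mRNAs, whereas diamonds lie on the other side of 0 from circles and squares for antimicrobial, stress keratin, NF-kB and metallothionein lists.

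The NBD libraries differed among themselves in a pair of ways. First, NBD replicate 2 carried transcripts that were otherwise high in control replicates 1 and 2 and low in the remaining libraries. Whether it is a mixed library was not tested. In all, 11 protein-coding genes stood at 5 CPM or more in both those controls and at 1 CPM or less in control replicate 3, NBD replicates 1 and 3 and the BD libraries. Of these, 10 were higher in NBD replicate 2 than in any of these 6 libraries. The selection capped those 6 libraries but not NBD replicate 2, so it favours that library and the count is no test. The level of the 11 genes in NBD replicate 2 was 30.2% of the mean of both controls at the median, and from 2.68% to 103%. SESN3, a stress-induced sestrin, stood at 0.407, 14 and 0.551 CPM in NBD and 15.7, 11.5 and 0.904 CPM in control, and BMP7, a BMP ligand, at 0.185, 6.33 and 0.197 and 14.5, 13.6 and 0.226 CPM. The cadherin CDH8 stood at 0.0741, 4.39 and 0.236 CPM in NBD and 26.1, 23.2 and 0.226 CPM in control. The exception was TUB, at 0.296, 0.538 and 0.197 CPM in NBD and 19.3, 19.6 and 0.414 CPM in control, and it was among the 17 genes DESeq2 called lower. These genes were chosen after their values were seen. NEFL, a neurofilament protein named from the neural marker list, was likewise intermediate in this library, at 6.93, 24.2 and 8.06 CPM in NBD and 62.2, 74 and 8.66 CPM in control.

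Second, NBD replicates 1 and 3 differed with transcript length. In 5 equal bins of the protein-coding genes by the length of their longest annotated transcript, the median log2 difference of NBD replicate 1 over replicate 3 was -0.48, -0.20, -0.09, 0.06 and 0.21 from the shortest to the longest. Short and abundant ribosomal protein mRNAs went with this, at median deviations from the mean of all libraries of -0.76, -0.11 and 0.31 in NBD replicates 1 to 3. PLEC, a very long cytolinker gene, stood at 251, 313 and 27.5 CPM in NBD, and LAMA5, a laminin chain, at 355, 283 and 56.8 CPM, both chosen after their values were seen. In these 2 genes NBD replicate 3 was the low library. How far length bears on a given gene was not tested.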

How the data were processed

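Read counts per gene were deposited by the authors as raw whole numbers, with no normalization. Per the submitters' processing notes, reads went through FastQC 0.74, Trimmomatic 0.39, STAR 2.7.11b and featureCounts on GRCh38. The sources used here do not give the annotation release, the strand setting or the treatment of multiply matching reads, so overlapping, antisense and near-identical genes have uncertain counts. Libraries were stranded, depleted of rRNA and paired-end, per the labels' protocols. Of 78899 gene IDs, 39344 had a count in any library, 61458 matched a gene name table and 57338 had a type and GRCh38 coordinates in GENCODE 29.

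One edgeR 4.0.16 quasi-likelihood fit (R 4.3.3) used all 9 libraries, a term for each group, TMM scaling and filterByExpr, with 6 residual degrees of freedom. P-values are two-sided and adjusted by Benjamini-Hochberg over 16921 genes, with calls under 0.05. Log2 fold changes are given ± SE. DESeq2 1.42.0 and limma-voom (limma 3.58.1) were alternatives. The edgeR step was also run on simulated counts with planted changes, and its outcome is not given here. Apart from those changes all groups had a common mean per gene, so the split among controls was not simulated. Shares of counts were compared by exact permutation tests. Promoter windows came from RefSeq. Plots used matplotlib 3.10.9.

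Genes were named by rule: per direction, the 10 called protein-coding genes with the largest change, filled by lowest p among separated genes, and the 10 with the widest gap; up to 4 members of each of 42 lists; 5 non-coding genes per direction by p; and 12 fixed genes, with a mean of 5 CPM or more in the higher group for all but the last. None was called, so all places were filled. The members, lists and rule were chosen with earlier results of these data known. Lists are described by counts and medians, with no set test. Some results are not reported here.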

Additional observations from a re-analysis of the deposited data

Results flagged for a closer look

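For 3 genes the difference from control was not the same in both sorted groups, by edgeR's quasi-likelihood test of NBD against BD with adjustment over all genes. MT-ND4 stood at 215, 319 and 246 CPM in NBD, 81.8, 65.1 and 73 CPM in BD and 122, 135 and 107 CPM in control, and NBD was above BD by 1.83 on the log2 scale (adjusted p = 0.032). MT-ATP6 stood at 107, 186 and 113, 36, 28.9 and 34 and 44.5, 53.4 and 50.7 CPM, a log2 difference of 2.04 (adjusted p = 0.032). MT-CYB stood at 197, 254 and 211, 74.6, 65.8 and 76.4 and 109, 136 and 89.1 CPM, a log2 difference of 1.61 (adjusted p = 0.0457). In each gene all 3 NBD libraries were highest and all 3 BD libraries lowest. The sources used here do not say which RNA kit gave which library, so its part in this difference was not tested. With 3 libraries a group, no test for a library that stands apart within its group was made.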

How the results depend on the processing

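The count of 0 genes called in NBD against control was the same with other size factors, a stricter filter, limma-voom and the 6 libraries alone. The same held with protein-coding genes alone, removal of both mitochondrial rRNA genes and an added log2 threshold of 1. The count was 29 with DESeq2 and 594 of 39344 genes with no filter, and over fits that leave out 1 library it ran from 0 to 3228, the last without control replicate 3. Named genes called numbered 19 with DESeq2, 75 with no filter and 0 to 136 when 1 library was left out, and list members 12, 105 and 0 to 259. For NBD against BD the 3 calls became 57 with DESeq2 and 0 to 16 when 1 library was left out. They were 0 without any one BD library, NBD replicate 2 or 3, or control replicate 1, then 3 without NBD replicate 1, 4 without control replicate 2 and 16 without control replicate 3. Replicate numbers are shared between groups, but the labels do not say that they mark a common culture or day, so the main fit did not pair the samples. Deviations of same-numbered NBD and control libraries correlated at 0.036, 0.441 and 0.372. Each NBD library correlated best with the control of its own number, but in 2 cases by little. NBD replicate 1 was at 0.025 with control replicate 3, and NBD replicate 2 at 0.408 with control replicate 1. Whether same-numbered libraries share a culture or day was not tested. With a replicate block in the fit, edgeR called 0 genes in NBD against control (2499 at an unadjusted p under 0.05) and 0 against BD. Of 82 genes with a printed fold change or p, 11 changed direction under at least 1 of 16 alternatives. Against control replicate 3 alone the log2 value turned for BNIP3 (0.32), NDRG1 (0.36), KRT5 (0.42), KRT15 (-0.26), KRT10 (-0.25), IFIT1 (-0.082), ISG15 (-0.40), LDHA (0.33) and HK2 (0.24). MKI67, near 0, was at -0.034 with limma-voom and from -0.32 to 0.35 when 1 library was left out, and CDKN1A at 0.0064 under the stricter filter and from -0.22 to 0.32. Over all 16 alternatives MKI67 ran from -0.32 to 0.79 and CDKN1A from -0.48 to 0.32. The cause of these changes was not tested. The mean share of counts was 12.7 percentage points higher in NBD for mitochondrial rRNA and 0.475 for mitochondrial mRNA, and as a share of protein-coding counts 22.1 and 0.788. With 1 library left out these ran from 11.2 to 15.6 and from 0.438 to 0.549, and the small nucleolar RNA difference from -0.49 to -0.15.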

Other observations

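Some genes outside the groups above also varied between single libraries. FLG, profilaggrin of the granular layer, stood at 44, 83.3 and 4.56 CPM in NBD replicates 1 to 3 and at 42.6, 38 and 6.48 CPM in control replicates 1 to 3, low in the last library of each group. FST, which binds activin, stood at 7.82, 52.3 and 5.59 CPM in NBD and 26, 27.8 and 5.72 CPM in control, highest in NBD replicate 2. SPARC, a matrix protein, stood at 0.963, 14.3 and 0.708 CPM in NBD and 29.3, 29.4 and 0.829 CPM in control, intermediate in NBD replicate 2. These 3 genes were chosen after their values were seen. CDH5, the cadherin of endothelial junctions named from the endothelial marker list, stood at 15.6, 5.92 and 11.9 CPM in NBD and 1.07, 0.785 and 16.6 CPM in control, while PECAM1, KDR and CLDN5 of that list were under 0.2 CPM in all 6 libraries. CDIN1, a nuclear gene of chromosome 15, was the only protein-coding gene outside the mitochondrial genome among the 10 higher genes of lowest p, at 42.8, 42.4 and 39.5 CPM in NBD and 23.7, 19.7 and 30.8 CPM in control. DENND5B, a regulator of Rab proteins, was lower in every NBD library, at 1.26, 2.69 and 2.36 against 13.8, 14.4 and 3.09 CPM, and was called lower by DESeq2 (adjusted p = 0.0116).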
